A study of Mus musculus with 2 samples.

Results

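Mir204 and Mir211 are the mouse microRNA genes that lie inside the transient receptor potential channel genes Trpm3 and Trpm1. They were picked by symbol in the GENCODE M21 annotation, which gave 2 of the 2202 microRNA genes in each deposited table. The rule uses symbols and host genes and no measured value, although earlier results of these data were known when it was set. Hippocampus of female B6CASTF1/J mice aged 14 days, a first-generation cross of C57BL/6J and CAST/EiJ, was profiled by small RNA sequencing. All of it belongs to 1 untreated, unmodified group with 2 biological replicates, each a pool labelled with 3 females and each sequenced as 1 library. No other genotype, agent or age was labelled, so the data allow a description of levels and of the difference between the pools, and a pool cannot be told apart from its library. The tissue label names a hippocampal layer without saying which.

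A microRNA gene is transcribed as a hairpin, and a short arm of it is cut out and loaded into an Argonaute protein. The loaded RNA finds messenger RNAs mainly through its seed, bases 2 to 8 counted from the 5′ end, and lowers their translation or stability. miR-204 and miR-211 are known as a seed family of choroid plexus, the epithelium that secretes cerebrospinal fluid, and of pigmented cells. miR-204 is abundant in choroid plexus, retinal pigment epithelium and lens, and miR-211 in melanocytes, where the pigment cell factor MITF drives its host. Trpm3 encodes a calcium-permeable channel opened by heat and by the steroid pregnenolone sulfate, and Trpm1 a channel of retinal ON bipolar cells and melanocytes.

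The mature sequences are shown because they decide which reads can tell the genes apart. They are RefSeq's for build GRCm38.p6, written 5′ to 3′ with the seed in capitals.
mmu-miR-204-5p: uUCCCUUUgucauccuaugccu
mmu-miR-211-5p: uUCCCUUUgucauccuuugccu
mmu-miR-204-3p: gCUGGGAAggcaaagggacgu
mmu-miR-211-3p: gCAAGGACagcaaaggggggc
The 5p arms were identical at 21 of 22 bases and shared their seed. The only difference, counted from 1 at the 5′ end of miR-204-5p, was A17U, outside the seed. The 3p arms matched at 14 of 21 bases when laid end to end, and 3 of their 7 differences fell in the seed: U3A, G4A and A8C. The strands opposite the shared arm therefore carry different seeds.

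The hairpins are shown to place the arms, which are in capitals.
Mir204 hairpin: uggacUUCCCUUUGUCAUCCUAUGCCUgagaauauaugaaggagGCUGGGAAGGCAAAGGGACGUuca
Mir211 hairpin: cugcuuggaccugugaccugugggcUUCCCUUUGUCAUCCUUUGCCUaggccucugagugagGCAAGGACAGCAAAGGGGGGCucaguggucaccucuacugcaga
The annotated Mir204 hairpin is 68 bases long and the Mir211 hairpin 106, with 17 and 15 bases between the arms. Folded with RNAfold, both gave 17 of 22 bases of the 5p arm paired with the 3p arm, and all 7 seed bases were among them. The predicted folding energies were -33.7 kcal/mol for Mir204 and -57.6 for the longer Mir211. The longest run of bases common to the genes was 17, and no other microRNA gene shared more than 12 with either. A deposited count is for a whole hairpin gene, so reads of the 5p and 3p arms are not separated here. Whether a read of one 5p arm was ever counted for the other gene was not tested.

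Among the 1738 mature mouse microRNAs in the RefSeq table, the 5p seed occurred in 1 further sequence, miR-7670-3p, whose gene Mir7670 had 0 counts in both libraries. The seed of miR-204-3p was shared with miR-7684-5p, and Mir7684 also had 0 counts. No other mature sequence held the seed of miR-211-3p. The 5p seed was thus represented in these counts by Mir204 and Mir211.

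Mir204 (ENSMUSG00000065507.3) lies at chromosome 19, 22750605 to 22750672, on the plus strand of GRCm38. It sits 611.6 kb from the first annotated start of Trpm3 (ENSMUSG00000052387.16, 22139046 to 22995410), on the same strand, 71.4% of the way along the gene. Of 24 annotated Trpm3 transcripts 18 span the hairpin, and none has an exon over it. In 14 of these 18 it falls in intron 6, which runs 33462 bases from 22733172 to 22766633. The other 4 carry an extra exon at 22749771 to 22749845, which ends 759 bases before the hairpin.

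Mir211 (ENSMUSG00000065585.1) lies at chromosome 7, 64205806 to 64205911, also on the plus strand and in the direction of its host. It is 52.0 kb from the first start of Trpm1 (ENSMUSG00000030523.18, 64153835 to 64269775), 44.8% along a gene of 115.9 kb. Of 23 Trpm1 transcripts 12 span it, again with no exon over it, and 9 of these place it in the same intron of 3682 bases, from 64204594 to 64208275. That intron is number 5 or 6, depending on the transcript. Mir204 and Mir211 were the only microRNA genes of the annotation found within a Trpm, Trpc, Trpv, Trpa or Mcoln gene on its strand.

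**Figure D1:**
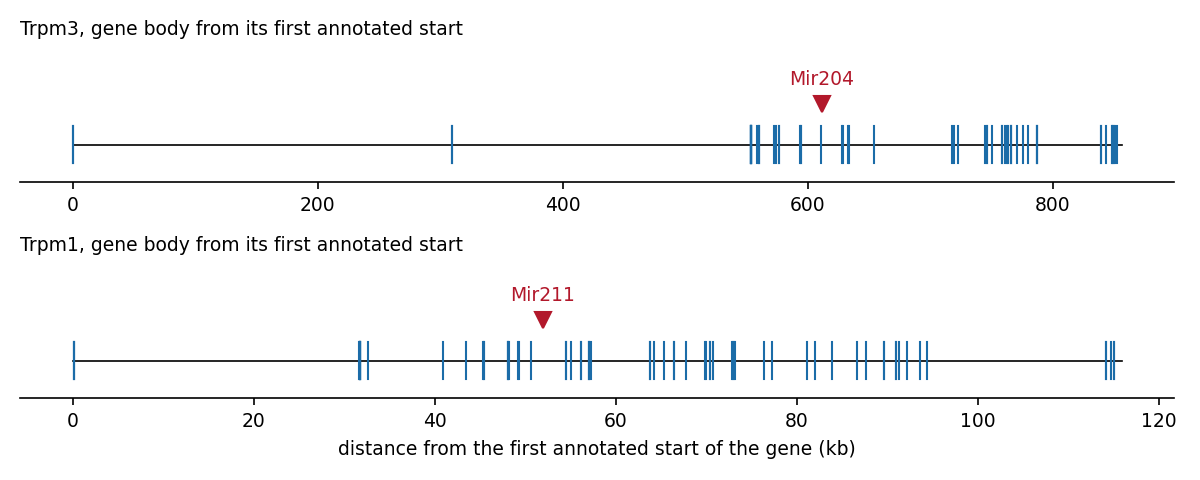
Map of Trpm3 (top) and Trpm1 (bottom), with distance from the first annotated start in kb on the horizontal axis, annotated exons of all transcripts as vertical bars and the microRNA as a triangle. Mir204 sits at 611.6 kb in a gene of 856.4 kb, and Mir211 at 52.0 kb in a gene of 115.9 kb.

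Counts assigned to microRNA genes on their own strand summed to 4764797 in replicate 1 and 2852269 in replicate 2, so 1 count was worth 0.210 and 0.351 CPM, a level scaled to the library's assigned total. A count of 0 would allow up to 0.630 CPM in replicate 1 and 1.05 in replicate 2, taking 3 counts as the limit. A small RNA read covers a whole mature product, so levels were compared between genes without dividing by gene length. Intervals and limits here cover counting error only, with each read taken as independent. Reads copied by PCR without molecular identifiers are not independent molecules, so the intervals may be too narrow. For the labelled tissue, 12 neuron-enriched genes were read, whose summed level was 25456 CPM in replicate 1 and 25945 in replicate 2. With no other tissue profiled, this sum cannot tell hippocampus from another neuronal tissue. A run of 20 or more bases is common to another microRNA gene in 10 of these 12, and the 3 Mir124a copies held only 12 and 20 counts in all, so most of this sum is uncertain. The 2 genes without such a run, Mir132 and Mir137, summed to 11203 and 11615 CPM, at means of 6070 ± 1968 and 5339 ± 1678 (SD, n = 2). Mir132 was higher in replicate 2, at 4678 and 7461 CPM, and Mir137 lower, at 6526 and 4153. Their near-equal sums therefore do not mean that either gene was level between the libraries.

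Among assigned reads Mir204 was a moderately abundant microRNA of these libraries, and Mir211 was near the limit of detection. Mir204 had 9660 counts in replicate 1 and 1252 in replicate 2. These are 2027 CPM (95% Poisson interval 1987 to 2068) and 439 CPM (415 to 464), and the intervals lie far apart. Its mean was 1233 ± 1123 CPM (SD, n = 2), or 0.123% ± 0.112 of assigned counts. Among all 2202 genes it ranked 78 in replicate 1 and 142 in replicate 2. Reads mapped to several places, 40.8% and 37.1% of all reads, are in no gene's count, so levels and ranks leave them out.

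Mir211 had 15 counts in replicate 1 and 6 in replicate 2. These are 3.15 CPM (1.76 to 5.19) and 2.10 CPM (0.772 to 4.58), and the intervals overlap. Both values exceeded what a count of 0 allows, although the lower bound in replicate 2 did not. The mean was 2.63 ± 0.739 CPM (SD, n = 2), and the gene ranked 414 and 454. Neither gene had a count on the opposite strand in either library, no annotated microRNA gene lies opposite them, and ignoring strand left their counts as they were.

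**Figure D2:**
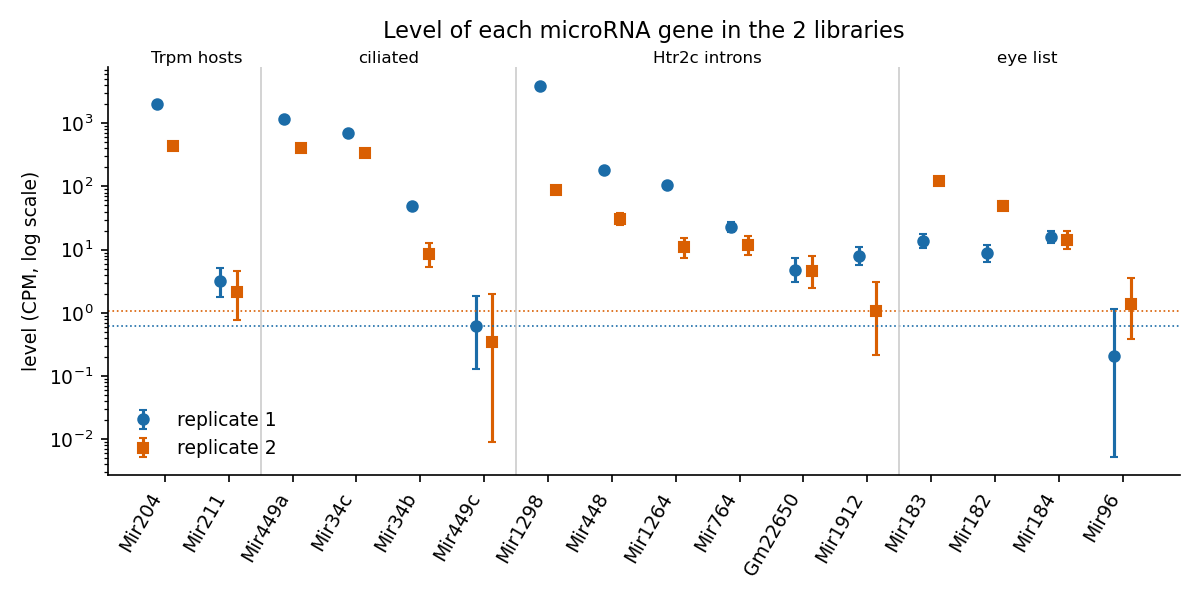
Level in CPM on a log axis for Mir204, Mir211 and genes of the ciliated-cell, Htr2c intron and eye lists, with circles for replicate 1, squares for replicate 2, bars for the 95% Poisson counting interval and dotted lines for the level that a count of 0 allows in each library. Mir204 stands at 2027 and 439 CPM, and Mir211 at 3.15 and 2.10 CPM. Mir449b and Gm24627, with 0 counts in both libraries, are not drawn.

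The genes next to Mir204 in mean level did not hold that place in both libraries. Mir92-1, of the proliferation-linked Mir17hg cluster, stood above it at 1258 ± 176 CPM (SD, n = 2), and Mir351 at 1256 ± 558. Mir540 and Mir376a followed at 1209 ± 289 and 1188 ± 376 CPM. All 4 lay below Mir204 in replicate 1, the highest of them being Mir376a at 1454 CPM, and above it in replicate 2, the lowest being Mir376a at 922. The 4 were picked for nearness in mean level, so their means lie within the spread of Mir204 itself by choice. Mir92-1 has a run of 20 or more bases in common with another microRNA gene, so its level is uncertain.

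Around Mir211 the order is not resolved at this depth. Mir1945 had the same counts, 15 and 6. Mir7036 lay just above at 2.63 ± 0.747 CPM (SD, n = 2), and Mir5128 and Mir7025 just below at 2.56 ± 1.84 and 2.52 ± 2.38. These rest on 4 to 12 counts a library.

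Between the members themselves the gap was wide in each library. Mir204 gave 644 counts for each Mir211 count in replicate 1 (exact 95% interval 390 to 1151) and 209 in replicate 2 (95.6 to 570). Mir211 thus made up 0.155% of the pair's counts in replicate 1 (0.0868 to 0.256) and 0.477% in replicate 2 (0.175 to 1.04), a mean of 0.316% ± 0.228 (SD, n = 2). Fisher's exact test of the 4 counts, two-sided, gave p = 0.0272, the only test of this kind that was run. The odds ratio was 3.09 with an exact interval of 0.979 to 8.44, which includes 1. The test and the interval therefore fall on different sides of the threshold, and the difference rests on 21 Mir211 counts.

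Mir204 was lower in replicate 2. The log2 ratio of replicate 2 to replicate 1, with library sizes scaled by TMM, was -2.09 (95% counting interval -2.17 to -2.0), which makes replicate 1 higher 4.24-fold. It passed the two-sided exact binomial test after Benjamini-Hochberg adjustment over the 450 genes that reached 20 counts in sum, its p being too small to be written other than as 0. The same test called 63.6% of the 450 genes, 32.2% as higher and 31.3% as lower in replicate 2, so passing it does not set a gene apart. The size did more: 14 of the 450 genes (3.11%), Mir204 included, had a ratio as low, while the median over all was 0.01 with quartiles at -0.46 and 0.54. The test compares these 2 libraries and not conditions, and in bulk tissue fewer cells of a type cannot be told apart from less RNA per cell.

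Mir211 did not pass, at a log2 ratio of -0.46 (-2.11 to 0.99), with p = 0.679 and an adjusted p of 0.738 by the same exact binomial test. Its 21 counts only just met the minimum of 20. The interval holds 0 and also the ratio of Mir204, so these counts neither showed a difference of that size nor set it aside.

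**Figure D3:**
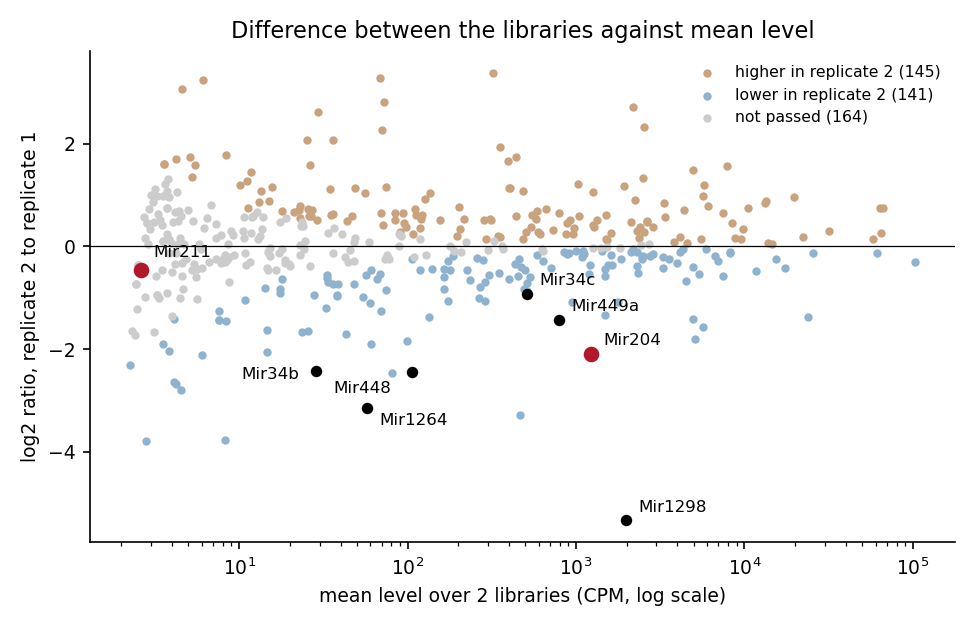
Log2 ratio of replicate 2 to replicate 1 against mean level in CPM (log axis) for the 450 genes tested, coloured by whether a gene was higher in replicate 2 (145), lower (141) or did not pass (164), with Mir204 and Mir211 in red. Mir204 lies at -2.09 at a level of 1233 CPM, and Mir211 lies at the left edge among genes that did not pass.

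By ratio over the 2 libraries, the genes most like Mir204 among 273 with a mean count of at least 100 were Mir214, Mir101a, Mir370, Mir34b and Mir448, within 0.18 to 0.36 of its log2 ratio. Mir214, encoded with Mir199a in Dnm3os, stood at 97.2 CPM in replicate 1 and 23.8 in replicate 2, with a log2 ratio of -1.90 (-2.29 to -1.54). Mir101a was at -1.84 (-2.14 to -1.56), and is uncertain for the same reason. Mir370, a microRNA of the imprinted Dlk1-Dio3 region, was at -1.80 (-1.84 to -1.77) and far more abundant, at 5079 ± 4192 CPM (SD, n = 2). Likeness over 2 libraries is a single difference, so it says only that these ratios are close. Of the 273 genes, 6 were lower still: Mir1298, Mir301, Mir1264, Mir148a, Mir448 and Mir34b.

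The list for choroid plexus and ciliated epithelium holds both members and the Mir34 and Mir449 genes, which are abundant in multiciliated cells. Of its 7 genes 5 could be tested, 4 passed, all lower in replicate 2, and Mir211 was the exception, beside the background of 31.3% called lower. Mir204 is itself 1 of those 4. Without the 2 members 3 genes could be tested, and all 3 were lower. The median log2 ratio was -1.42, against 0.01 over all genes tested. Mir449a, from a Cdc20b intron, had 1179 and 404 CPM, and Mir34c had 692 and 336 CPM. Their log2 ratios were -1.42 (-1.52 to -1.33) and -0.92 (-1.03 to -0.82). Mir34b had 48.9 and 8.41 CPM and a ratio of -2.42 (-3.09 to -1.81). Mir449c, with 3 counts and 1, and Mir449b, with none, were not tested. The list was taken from earlier work on these data.

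**Figure D4:**
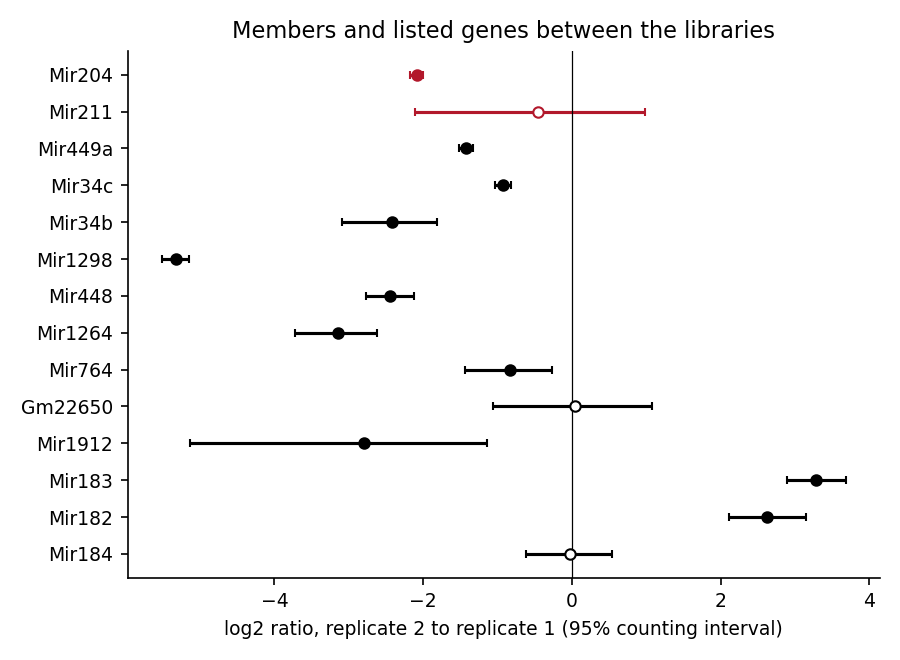
Log2 ratio of replicate 2 to replicate 1 with its 95% counting interval for the members, in red, and for listed genes that could be tested, with filled points for genes that passed the exact binomial test and open points for those that did not. Mir204 at -2.09 lies between Mir449a at -1.42 and Mir34b at -2.42, and the interval of Mir211 spans 0.

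Counts of Mir204 set against a partner gene in the same library need no scaling between libraries. The 6 partners that follow were chosen after their values were seen, so these ratios are a description with counting intervals and no test. Mir204 had 1.72 counts for each of Mir449a in replicate 1 (1.66 to 1.78) and 1.09 in replicate 2 (1.00 to 1.18). The ratio in replicate 1 over that in replicate 2, the odds ratio, was 1.58 (1.45 to 1.72). Against Mir34c it had 2.93 and 1.31, an odds ratio of 2.24 (2.04 to 2.46). There were thus fewer Mir204 counts for each count of these ciliated-cell genes in replicate 2. Against Mir34b it had 41.5 and 52.2, with an odds ratio of 0.795 whose interval of 0.497 to 1.22 includes 1.

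The other 3 partners, Mir1298, Mir1264 and Mir448, lie in introns of Htr2c, a serotonin receptor gene transcribed strongly in choroid plexus. There were 0.527 Mir204 counts for each of Mir1298 in replicate 1 and 4.99 in replicate 2, so the order of the genes turned over. The odds ratio was 0.106 (0.0917 to 0.121). For Mir1264 the values were 19.4 and 40.4, with an odds ratio of 0.480 (0.321 to 0.694). For Mir448 they were 11.1 and 14.2, with an odds ratio of 0.781 (0.615 to 0.982). There were thus more Mir204 counts for each count of these 3 genes, chosen with their values known, in replicate 2. Of the other Htr2c intron genes tested, Mir1912 lay below Mir204 in log2 ratio, at -2.80 against -2.09. Mir764, at -0.83, and Gm22650, at 0.04, lay above it. For Mir764 and Gm22650 there were fewer Mir204 counts for each count in replicate 2.

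**Figure D5:**
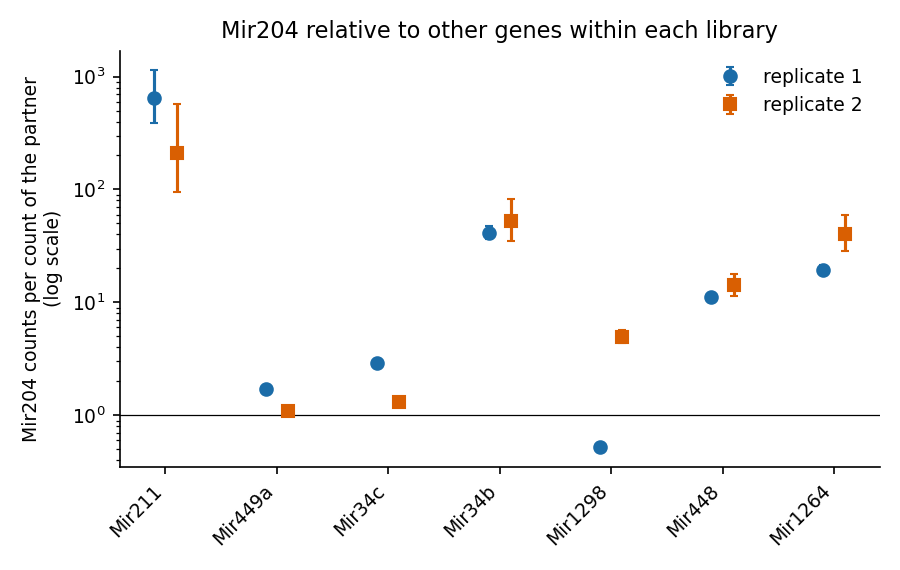
Counts of Mir204 for each count of a partner gene within a library, on a log axis, with circles for replicate 1, squares for replicate 2 and bars for the exact 95% interval. The ratio to Mir1298 was 0.527 in replicate 1 and 4.99 in replicate 2, and the ratio to Mir34c was 2.93 and 1.31, so neither proportion was the same in both libraries.

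Of the 7 microRNA genes in Htr2c introns 6 could be tested, 5 were lower in replicate 2, beside 31.3% called lower over all genes tested, and the median log2 ratio was -2.62, against 0.01 over all. Mir764 passed at -0.83 (-1.43 to -0.26), and Gm22650, at 0.04 (-1.06 to 1.08), did not pass. This list was grouped in earlier work after its values were seen. The markers of choroid plexus other than the 2 members, Mir1298, Mir448 and Mir1264, summed to 4133 CPM in replicate 1 and 130 in replicate 2, of which Mir1298 alone gave 3846 and 88.0. These 3 markers were fixed with the values of the Htr2c genes known, and Mir764 and Gm22650 were not among them. With Mir204 and Mir211 the sums were 6164 and 571 CPM, and none of the 5 markers was at 0. Multiciliated markers summed to 1921 and 748 CPM, with Mir449b at 0 in both libraries. The part of choroid plexus or ciliated tissue in the Mir204 difference was not tested.

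The other marker lists showed other patterns. Epithelial microRNAs of the mir-200 family with Mir203 summed to 146 CPM in replicate 1 and 365 in replicate 2. Of these, 5 genes were higher in replicate 2 and Mir203 was lower, at 62.3 and 34.4 CPM. The background over all genes tested was 32.2% higher and 31.3% lower. Sums of the 12 neuron-enriched genes are given above. In the neuron list 9 genes could be tested, of which 4 were higher and 3 lower in replicate 2, beside 32.2% higher and 31.3% lower over all genes tested. Red blood cell genes summed to 290.0 and 722 CPM, mostly from Mir451a at 217 and 663, while Mir144 and Mir486 did not pass. Astrocyte genes summed to 1745 and 1845 CPM, with Mir29a and Mir29c higher in replicate 2 while Mir193b did not pass. Oligodendrocyte genes summed to 1912 and 3173, mostly from Mir219a-2 at 1247 and 2583. Mir219a-2 has a run of 20 or more bases in common with another microRNA gene, so its level is uncertain. Mir338 stood at 664 and 590 CPM and did not pass. The endothelial Mir126a stood at 9966 and 16865 CPM, smooth muscle genes summed to 5997 and 3484, and the microglial Mir223 and Mir155 to 90.7 and 52.6. Of these 2 microglial genes Mir155 was lower in replicate 2 and Mir223 did not pass. Mir146a of the microglial list had no row under that symbol and is not in this sum. The row named Mir146 stood at 683 and 588 CPM, well above the sum, and did not pass, at a log2 ratio of -0.09. The microglial sum thus leaves out that more abundant row. Mir219b was at 0 in replicate 2, with 3 counts in replicate 1. The part of these cell types in the Mir204 difference was not tested either.

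The eye list adds Mir182, Mir183 and Mir96, a sensory cluster of retina, and Mir184, which is abundant in cornea and lens. Of its 5 tested genes Mir204 was lower in replicate 2, 2 were higher and 2 did not pass, a share called near the 63.6% over all genes tested. Mir183 stood at 13.9 CPM in replicate 1 and 123 in replicate 2, with a log2 ratio of 3.28 (2.89 to 3.68), and Mir182 at 8.81 and 49.8 CPM, with 2.62 (2.11 to 3.15). Mir184 stood at 16.0 and 14.4 CPM and did not pass, at -0.03 (-0.61 to 0.54). Mir96 had 1 count and 4 and was not tested. Mir182 and Mir183 were thus high in the pool where Mir204 was low.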

How the data were processed

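Small RNA libraries from 2 pools were analysed as 1 group. The authors deposited raw counts of reads per microRNA gene, made on mm10 with GENCODE M21 per the text deposited beside the counts. The aligner is not given in the sources used here, nor is the counter. Lines for reads without a gene were left out: 36.1% and 36.4% of all reads were assigned. Reads that mapped to several places made up 40.8% and 37.1% of all reads and were among those left out. Of the 2 strand columns, the one with the larger sum was taken as sense. All 2202 identifiers matched the annotation.

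Library sizes were scaled by TMM (edgeR 4.0.16, R 4.3.3). Genes that reached 20 counts in sum entered a two-sided exact binomial test (smaller tail doubled) with Benjamini-Hochberg adjustment at 0.05. With 1 group no quasi-likelihood contrast exists. The p-values take account of counting error only and do not measure the spread between pools or libraries. Intervals at 95% are Poisson for levels, Clopper-Pearson for shares and ratios, and conditional exact for odds ratios. The binomial test was tried on simulated Poisson counts with known ratios. Those counts hold no spread between pools, so the trial cannot show how the test behaves under such spread. Python 3.11.15, scipy 1.17.1 and ViennaRNA 2.7.2 were used.

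The members, lists and rules for named genes were chosen with earlier results of these data known. Named were the members, listed genes, the 2 genes next to each member in level on each side, the 5 nearest to Mir204 in ratio, and seed matches. Mir301 and Mir148a, and the within-library partners of Mir204 other than Mir211, were chosen after their values were seen. A gene with a run of 20 bases found in another microRNA gene was treated as uncertain.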

Additional observations from a re-analysis of the deposited data

How the results depend on the processing

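The Mir204 ratio kept its direction and its side of the threshold under all 9 alternatives, from -2.21 with total counts as library sizes to -2.04 with the deeper library thinned. Total counts in place of TMM shift every log2 ratio by -0.12, and 125 genes were then higher and 168 lower. The Mir211 ratio did not pass under any of the 7 alternatives that gave a value (-0.58 to -0.43, adjusted p from 0.615 to 0.865), and thinning or a summed count of at least 200 removed the gene. Leaving out replicate 1 gave 439 CPM for Mir204, 2.10 CPM for Mir211 and a Mir211 share of 0.477%. Leaving out replicate 2 gave 2027 CPM, 3.15 CPM and 0.155%. No ratio can be had from 1 library. With all reads as denominator, Mir211 stood at 0.951 CPM, by construction. The number of genes called lay between 226 and 293. A summed count of at least 200 left 3 Htr2c intron genes, all called, beside 239 of 273 genes over all. Leaving out genes that share 20 bases left 2 neuron genes, both called, beside 226 of 361 over all. Fewer listed genes were tested under these settings. Gm22650 changed sign with total counts (-0.083) and with no filter (-0.032), and Mir184 with thinning (0.21), none past the test. DESeq2 1.42.0 size factors gave -2.09 for Mir204. No paired analysis was possible because there is a single group. For Mir211, 21 counts allow a ratio anywhere from -2.11 to 0.99.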
